A study of Mus musculus with 6 samples.

Results

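The mitochondrial respiratory chain was followed through 89 of the 19938 genes that the arrays measured with a probe set of their own. The members were the genes whose annotated symbol begins with Nduf, Uqcr or Atp5, or with Cox and a digit from 4 to 8, together with Sdha, Sdhb, Sdhc and Sdhd. They comprised 41 genes of complex I, 4 of complex II, 8 of complex III, 19 of complex IV and 17 of complex V. No filter on low signals was used, so all 89 were tested. Cox7c, Ndufb4, Ndufb4b and Ndufs5-ps had the right kind of symbol but only probe sets shared with other genes, and were left out. Expression was measured on 6 arrays from marrow cultures of C57BL/6J mice (6 to 10 weeks of age, male by the labels), with 2 arrays for each of 3 sorted populations and 300 ng of total RNA per array. All marrow was cultured for 7 days. GM-BMDC are dendritic cells with high MHC class II and low F4/80 at the surface, grown with 25 ng/ml of GM-CSF, a cytokine that drives myeloid differentiation. GM-BMM are macrophages with low MHC class II and high F4/80, grown with the same dose of GM-CSF. M-BMM are macrophages positive for CD11b and F4/80, grown with 20% L cell conditioned medium as the source of M-CSF, the macrophage growth factor. M-BMM therefore differed from the others in growth factor, medium and gate together. The labels call the arrays of a population biological replicates without saying how many animals or cultures they hold. A p-value thus reflects array-to-array spread, which may be technical in M-BMM. In each GM-CSF population the arrays also differed in sex-linked genes, as given below, so their spread is not technical alone.

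The respiratory chain lies in the inner mitochondrial membrane. Complexes I and II pass electrons from NADH and from succinate to coenzyme Q, complex III passes them on to cytochrome c, and complex IV hands them to oxygen, while complex V (ATP synthase) uses the proton gradient built by complexes I, III and IV to make ATP. All complexes but II combine subunits of nuclear and mitochondrial genes, and the members are nuclear genes. Dendritic cells and macrophages are known to shift between oxidative phosphorylation and glycolysis when they mature or are activated.

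Signals are RMA values on a log2 scale, in which a difference of 1 is a 2-fold difference. The 89 members had mean signals over the 6 arrays from 3.85 to 12.58, with a median of 8.98. The lowest was Cox7b2, a testis form of a complex IV subunit. The highest was Atp5d, a subunit of the F1 part of ATP synthase. Of the 89, 78 lay above the median gene of the arrays (6.41), and 1, Cox7b2, lay under 5.04, the 25th percentile of all values. The other members with the brightest or dimmest probe set of their complex were Ndufc2 (11.81) and Ndufaf6 (6.00) in complex I, Sdha (9.98) and Sdhd (9.46) in complex II, Uqcrb (10.94) and Uqcrfs1 (7.60) in complex III, Cox6c (12.26) in complex IV and Atp5k (7.73) in complex V. Probe sets bind with different strength, so these values do not rank the genes by transcript number.

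The population labels were checked against marker genes. All 6 dendritic cell genes (Flt3, Zbtb46, Ccr7, Dpp4, Cd83 and H2-Ab1) were higher in GM-BMDC than in either macrophage population, with mean signals of 9.84 to 10.16 in the GM-BMDC arrays, 6.92 to 7.14 in GM-BMM and 6.25 to 6.47 in M-BMM. The 8 macrophage genes measured averaged 10.11 to 10.94, 11.12 to 11.53 and 11.55 to 11.56 in the same order, so that macrophage transcripts were also plentiful in GM-BMDC. Of 3 B lymphocyte genes, 2 were higher in GM-BMDC than in M-BMM and 1, Cd79b, was lower. Their mean signals were 6.56 to 7.50 in the GM-BMDC arrays, 5.53 to 5.70 in GM-BMM and 6.62 to 6.68 in M-BMM. Of 6 neutrophil genes, 1 was lower in GM-BMDC than in each macrophage population, with mean signals of 5.89 to 6.20, 6.67 to 7.10 and 6.81 to 6.88. In both comparisons of GM-BMDC, 1 of 4 T lymphocyte genes and 1 of 4 mast cell genes were higher, and the 1 erythroid gene measured was not called. None of 4 cell cycle genes passed the test in any comparison, with 0 below an unadjusted p of 0.05 in limma. The sex-linked genes went against the male label on the GM-CSF arrays numbered 1: Eif2s3y, a Y-linked gene, read 3.94 and 8.80 in the GM-BMDC arrays, 3.66 and 9.10 in the GM-BMM arrays and 9.32 and 9.17 in the M-BMM arrays. Xist, which is expressed from an inactive X chromosome, read 11.66 and 10.68 in the GM-BMDC arrays, 11.58 and 4.93 in the GM-BMM arrays and 4.53 and 4.80 in the M-BMM arrays, so the GM-BMDC array numbered 2 was high for both. The part of these differences in the results below was not tested beyond the fits without those arrays or with Y-linked expression as a covariate.

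Most respiratory chain genes were at similar levels in the 3 populations. Of those that differed between GM-BMDC and M-BMM, most were lower in GM-BMDC, while between GM-BMDC and GM-BMM the calls went in both directions. Genes were called at a Benjamini-Hochberg adjusted p under 0.05 in limma, over all 19938 genes. Between GM-BMDC and M-BMM, 3 members were higher and 11 lower in GM-BMDC, which is 15.7% of the members beside 16.7% of all genes. Of all genes, 7.76% were called higher and 8.9% lower in that comparison. Between GM-BMDC and GM-BMM, 3 members were higher and 2 lower in GM-BMDC, 5.62% beside 10.4% of all genes (4.69% higher and 5.74% lower). Between GM-BMM and M-BMM, 0 members were higher and 1 was lower in GM-BMM, 1.12% beside 6.19% of all genes (3.62% higher and 2.57% lower). At an unadjusted p under 0.05 in limma, 2 members were higher and 13 lower there, beside 1873 and 1961 of all 19938 genes. Between GM-BMDC and M-BMM, 3 and 23 members stood beside 2519 and 3102 of all genes. Between GM-BMDC and GM-BMM, 10 and 13 members stood beside 2125 and 2507. The overall share of members called was thus close to or under the background in each comparison. By complex, the share between GM-BMDC and M-BMM was 9.76% (I), 50% (II), 37.5% (III), 26.3% (IV) and 0% (V), on few genes in most. In bulk RNA, fewer cells of a type and less transcript per cell cannot be told apart.

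The median member difference was -0.09 between GM-BMDC and M-BMM beside -0.0024 for all genes, -0.02 beside 0.02 between GM-BMDC and GM-BMM, and -0.07 beside -0.02 between GM-BMM and M-BMM. The first median was -0.03 without the GM-BMDC array numbered 1, -0.18 without the one numbered 2, -0.05 and -0.15 without the M-BMM arrays numbered 1 and 2, and -0.03 with Y-linked expression as a covariate. The second was 0.06 without the GM-BMDC array numbered 1 and -0.08 without the one numbered 2, so its sign depended on a single array. Only 3 members, Ndufa4, Sdhb and Cox6a2, had a difference of 2-fold or more between any populations, 3.37% of the members beside 9.43% of all genes. The 95% interval of the difference lay within 2-fold in either direction for 85 of 89 members between GM-BMDC and M-BMM (86.2% of all genes), for 88 between GM-BMDC and GM-BMM (88.7%) and for 87 between GM-BMM and M-BMM (91.2%). In all, 15 members were called in at least 1 comparison and 74 in none. A test for any difference among the 3 populations (the F test of limma) called 10 members, 11.2% beside 17.6% of all genes: Ndufs8 and Ndufab1 of complex I, Sdhb and Sdhc, Uqcrh and Uqcr11, and Ndufa4, Cox5a, Cox6a2 and Cox6b2 of complex IV. The comparisons share arrays, so their counts are not independent of one another.

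**Figure D1:**
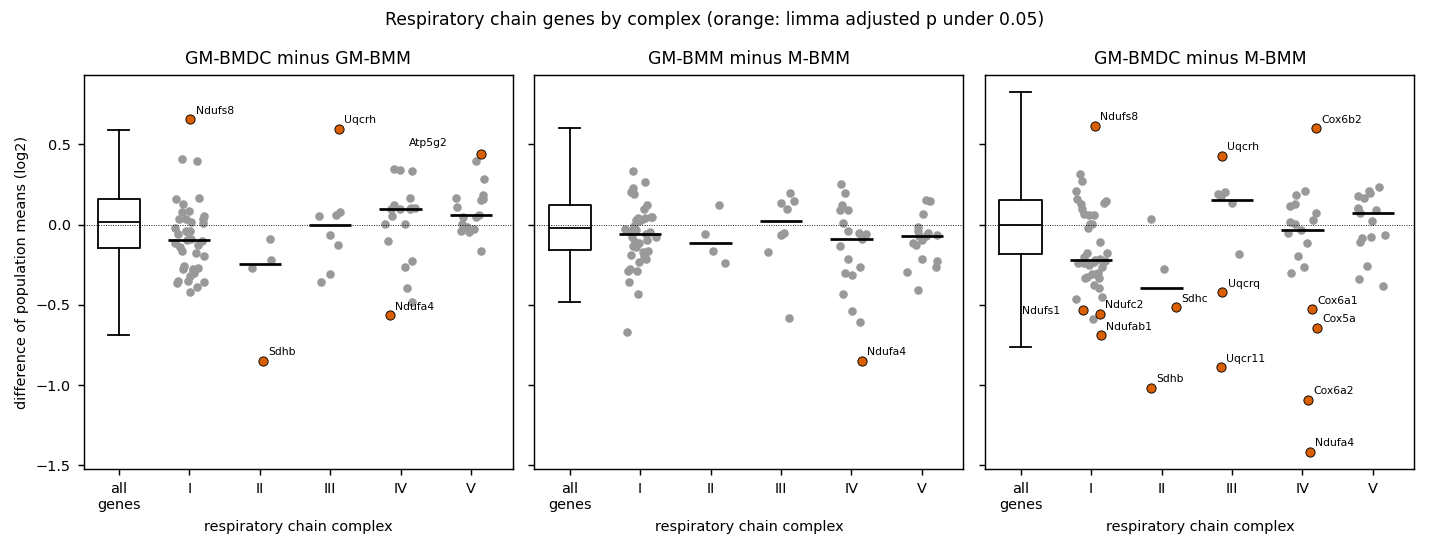
Difference of population means (log2, vertical axis) for each respiratory chain gene, by complex (horizontal axis), in the 3 comparisons. Each point is a gene, orange where limma's adjusted p is under 0.05. Bars are the median of a complex, and the box shows all 19938 genes (quartiles and median, whiskers at the 5th and 95th percentiles). Most grey points lie within the whiskers of all genes, and the called genes between GM-BMDC and M-BMM lie mostly below 0, from -0.42 for Uqcrq to -1.41 for Ndufa4.

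The number of called members moved with single arrays, and that of all genes called moved as well. Whether members lost calls more often than other genes was not tested. Without the GM-BMM array numbered 2, 0 of the 5 calls between GM-BMDC and GM-BMM were made, and without the M-BMM array numbered 1, 2 of the 14 between GM-BMDC and M-BMM. Without both GM-CSF arrays numbered 1, those with low Y-linked signals, 3 of the 5 calls between GM-BMDC and GM-BMM, the 1 call between GM-BMM and M-BMM and 8 of the 14 between GM-BMDC and M-BMM were made again. The fit without those arrays left 1 array in each GM-CSF population, so its array-to-array spread came from the M-BMM arrays alone. With Y-linked expression as a covariate, the numbers of these calls made again were 4, 1 and 7. Over all genes, the fit with that covariate called 2233, 899 and 2114 in the same order, beside 2079, 1235 and 3323 without it. Within GM-BMDC, the array numbered 1 was the lower one for 67 of 89 members (75.3%), while for all genes 47.0% were lower there. In GM-BMM this held for 47 of 89 members and in M-BMM for 27. The GM-BMDC arrays thus differed from each other across much of the chain, by a median of 0.09 over the members. In complex IV the array numbered 1 was the lower one for 9 of 19. The median size of the difference was 0.12 for members and 0.15 for all genes. Macrophage genes averaged 10.11 in the array numbered 1 and 10.94 in the other. Of the dendritic cell genes, Cd83 (11.57 and 10.93), Flt3 (7.32 and 6.80), Dpp4 (9.82 and 9.42) and Ccr7 (11.94 and 11.82) went the other way. H2-Ab1 (13.09 and 13.17) did not. Any link to the member shift was not tested.

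**Figure D2:**
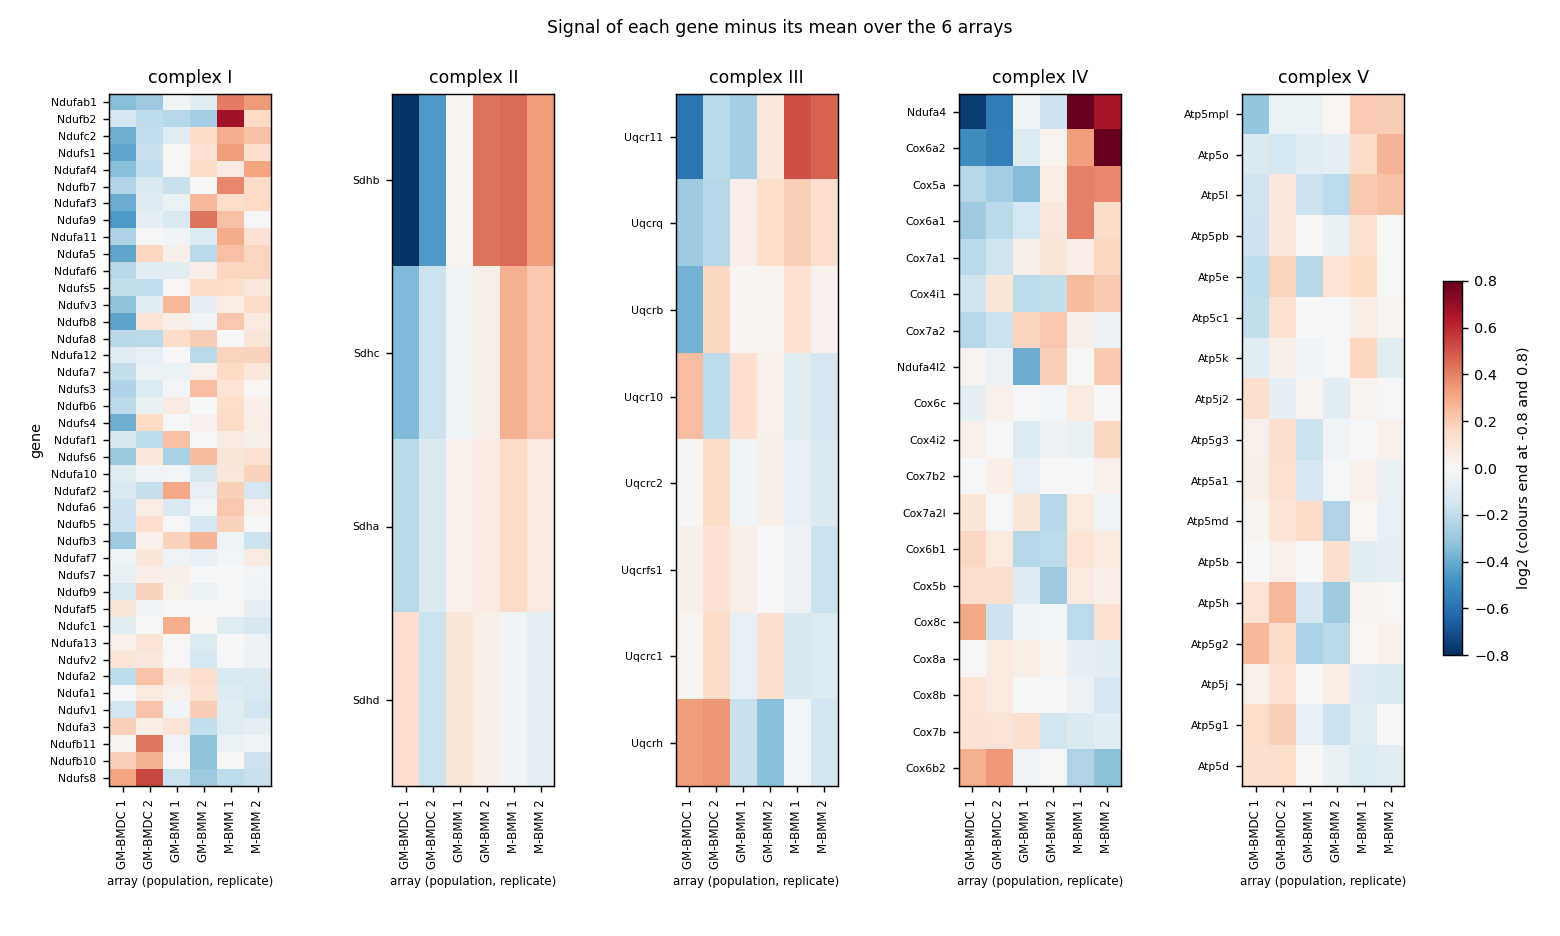
Signal of each of the 89 genes in each array minus the gene's mean over the 6 arrays (colour, log2), with genes in rows by complex and arrays in columns. Genes are ordered by the difference between GM-BMDC and M-BMM. Ndufa4, Cox6a2, Sdhb and Uqcr11 are blue in GM-BMDC and red in M-BMM, while most rows of complex V stay pale.

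Ndufa4, Sdhb, Ndufs8 and Uqcrh were the members called in more than 1 comparison, and the sequences around their start sites are shown because these genes moved in opposite directions between the same populations. Each is 250 bases before to 50 after the RefSeq start on GRCm38.p6, 5′ to 3′ on the gene's strand, from chr6:11907401-11907700 (minus strand), chr4:140961021-140961320 (plus), chr19:3912725-3913024 (minus) and chr4:116075021-116075320 (minus). Capitals mark the ETS motif CCGGAAG, the letters bound by GABP, or its reverse complement CTTCCGG.
Ndufa4: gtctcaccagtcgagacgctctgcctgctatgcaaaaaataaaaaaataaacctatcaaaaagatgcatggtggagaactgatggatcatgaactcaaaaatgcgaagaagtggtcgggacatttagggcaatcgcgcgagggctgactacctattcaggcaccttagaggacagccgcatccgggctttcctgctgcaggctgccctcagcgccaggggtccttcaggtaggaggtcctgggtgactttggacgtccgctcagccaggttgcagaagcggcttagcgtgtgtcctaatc
Sdhb: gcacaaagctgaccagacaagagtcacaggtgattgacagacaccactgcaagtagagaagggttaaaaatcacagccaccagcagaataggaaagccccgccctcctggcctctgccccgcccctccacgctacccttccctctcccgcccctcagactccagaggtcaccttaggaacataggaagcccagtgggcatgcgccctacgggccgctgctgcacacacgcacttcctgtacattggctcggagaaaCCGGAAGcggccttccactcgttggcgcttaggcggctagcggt
Ndufs8: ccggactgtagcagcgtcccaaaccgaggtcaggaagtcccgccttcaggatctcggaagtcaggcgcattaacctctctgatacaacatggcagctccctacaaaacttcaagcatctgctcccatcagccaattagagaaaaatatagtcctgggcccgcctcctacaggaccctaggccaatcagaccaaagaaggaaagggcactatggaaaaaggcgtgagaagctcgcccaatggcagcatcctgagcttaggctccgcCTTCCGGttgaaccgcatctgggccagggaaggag
Uqcrh: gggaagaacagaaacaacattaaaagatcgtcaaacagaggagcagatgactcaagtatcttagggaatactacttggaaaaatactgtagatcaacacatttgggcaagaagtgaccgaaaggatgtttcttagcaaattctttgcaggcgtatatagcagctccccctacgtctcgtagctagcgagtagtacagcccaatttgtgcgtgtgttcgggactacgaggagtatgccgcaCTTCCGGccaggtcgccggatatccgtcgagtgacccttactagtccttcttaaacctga
The motif stood once in Sdhb, which was lower in GM-BMDC, and once each in Ndufs8 and Uqcrh, which were higher. In the Ndufa4 window none of the searched letters occurred. A match is a string of letters, and binding was not measured.

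The same windows were available for 73 of the 89 members and for 17491 protein-coding genes. On either strand, the NRF1 motif stood in 18 of the 73 (24.7%) beside 7.17% of protein-coding genes. The ETS motif stood in 18 as well (24.7%, beside 12.9%), the YY1 motif AANATGGCG in 10 (13.7%, beside 3.64%) and the motif of estrogen-related receptors, TCAAGGTCA, in 2 (2.74%, beside 0.377%). A window may hold several of the 4 motifs. At least 1 was found in 40 of the 73 windows (54.8%) and in 21.2% of protein-coding windows. Over all 27025 windows of the table, the shares were 5.19%, 9.93%, 2.76% and 0.466%. NRF1 and GABP are known regulators of nuclear genes of the chain.

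Complex I, the NADH dehydrogenase, had 1 member higher and 3 lower in GM-BMDC than in M-BMM, and 27 of its 41 members had a difference below 0 (median -0.22). At an unadjusted p under 0.05 in limma, 1 was higher and 11 lower, beside 2519 and 3102 of all 19938 genes. Between GM-BMDC and GM-BMM 1 member was higher and 0 lower (median -0.10; 3 and 7 at an unadjusted p under 0.05). Between GM-BMM and M-BMM 0 were called in limma (median -0.06; 1 and 4 unadjusted). The measured members were 6 core subunits, most of which carry the flavin or iron-sulfur clusters, 28 accessory subunits and 7 assembly factors.

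Ndufs8, a core subunit that binds iron-sulfur clusters on the path to coenzyme Q, rose in GM-BMDC while most of its complex did not. Its signals were 9.99 and 10.21 in the GM-BMDC arrays, 9.50 and 9.38 in the GM-BMM arrays and 9.47 and 9.49 in the M-BMM arrays. Both GM-BMDC arrays lay above all 4 macrophage arrays. It was higher in GM-BMDC than in GM-BMM by 1.58-fold (log2 difference 0.66 ± 0.12, adjusted p = 0.0158) and than in M-BMM by 1.53-fold (log2 difference 0.62 ± 0.12, adjusted p = 0.0135), both in limma. The macrophage populations differed by -0.04 (95% interval -0.33 to 0.25). The first call was lost without the GM-BMDC or the GM-BMM array numbered 2 (adjusted p in limma up to 0.0778), the second without the GM-BMDC array numbered 2 or either M-BMM array (up to 0.102).

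Ndufs1, the largest core subunit, with several iron-sulfur clusters, was lower in GM-BMDC. It read 7.49 and 7.73 in the GM-BMDC arrays, 7.92 and 8.02 in the GM-BMM arrays and 8.24 and 8.04 in the M-BMM arrays. The difference from M-BMM was 1.45-fold (log2 difference -0.53 ± 0.13, adjusted p = 0.0342) in limma. The other core subunits did not pass the test: Ndufs3 differed by -0.24 between GM-BMDC and M-BMM, Ndufv1 by 0.16 and Ndufv2, which with Ndufv1 forms the NADH-oxidising part, by 0.13. Ndufs7, the neighbour of Ndufs8 in the complex, was nearly level over the populations at 11.72 ± 0.08 for GM-BMDC, 11.74 ± 0.05 for GM-BMM and 11.71 ± 0.02 for M-BMM (SD, n = 2 arrays each), with a 95% interval of -0.25 to 0.26 for GM-BMDC minus M-BMM. Core subunits of the same arm of the enzyme thus stood higher, level and lower in GM-BMDC.

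Of the 28 accessory subunits, 2 were lower in GM-BMDC than in M-BMM and 20 had a difference below 0. Ndufab1, the mitochondrial acyl carrier protein, which also serves lipoic acid and iron-sulfur cluster synthesis, read 7.98 and 8.03 in the GM-BMDC arrays, 8.29 and 8.23 in the GM-BMM arrays and 8.73 and 8.66 in the M-BMM arrays. The GM-BMDC, GM-BMM and M-BMM arrays did not overlap, with GM-BMM in between. It was 1.61-fold lower in GM-BMDC than in M-BMM (log2 difference -0.69 ± 0.11, adjusted p in limma = 0.00476). Its differences from GM-BMM missed the threshold on both sides (adjusted p in limma 0.207 and 0.0628). Its second probe set gave -0.65 for GM-BMDC minus M-BMM. Ndufc2, a membrane arm subunit and the brightest of complex I, read 11.43 and 11.62 in the GM-BMDC arrays, 11.72 and 11.97 in the GM-BMM arrays and 12.10 and 12.05 in the M-BMM arrays. It was 1.47-fold lower in GM-BMDC than in M-BMM (log2 difference -0.56 ± 0.13, adjusted p in limma = 0.0287).

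The calls between GM-BMDC and M-BMM in complex I moved with single arrays, as those of all genes did. That of Ndufab1 was lost without the M-BMM array numbered 1 (adjusted p in limma 0.0530), and those of Ndufs1 and Ndufc2 without the GM-BMDC array numbered 1 or either M-BMM array (up to 0.214 and 0.167). Ndufs1 and Ndufc2 also missed the threshold without both GM-CSF arrays numbered 1 (0.123 and 0.0673) and with the Y-linked covariate (0.141 and 0.110). Next after the called genes came Ndufaf4, an assembly factor (-0.46, adjusted p in limma = 0.0551), and the accessory subunits Ndufb2 (-0.59, 0.0577) and Ndufb7 (-0.45, 0.0609). None of the 7 assembly factors was called in limma, with 3 lower at an unadjusted p under 0.05. Their differences between GM-BMDC and M-BMM ran from -0.46 for Ndufaf4 to 0.06 for Ndufaf5.

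Complex II, the succinate dehydrogenase, was the complex with the lowest median in GM-BMDC, at -0.40 against M-BMM and -0.25 against GM-BMM over its 4 subunits. It links the citric acid cycle to the chain. Sdhb, the iron-sulfur subunit, read 8.85 and 9.17 in the GM-BMDC arrays, 9.65 and 10.06 in the GM-BMM arrays and 10.08 and 9.96 in the M-BMM arrays. Both GM-BMDC arrays lay below every macrophage array. Sdhb was 2.02-fold lower in GM-BMDC than in M-BMM (log2 difference -1.02 ± 0.17, adjusted p in limma = 0.00738) and 1.8-fold lower than in GM-BMM (-0.85 ± 0.17, 0.0232). The macrophage populations differed by -0.17 (95% interval -0.58 to 0.24). The call against M-BMM was lost without either M-BMM array (adjusted p in limma up to 0.0804), and that against GM-BMM without the GM-BMDC array numbered 1, the GM-BMM array numbered 2 or either M-BMM array (up to 0.126). Without both GM-CSF arrays numbered 1, the difference of GM-BMDC was -0.85 from M-BMM and -0.89 from GM-BMM. That fit left 1 array in each GM-CSF population, so it holds no spread within either.

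The other 3 subunits of complex II had smaller differences. Sdhc, a membrane anchor that binds heme and coenzyme Q, read 9.30 and 9.47 in the GM-BMDC arrays, 9.62 and 9.70 in the GM-BMM arrays and 9.93 and 9.87 in the M-BMM arrays, rising from GM-BMDC through GM-BMM to M-BMM without overlap. It was 1.43-fold lower in GM-BMDC than in M-BMM (log2 difference -0.51 ± 0.12, adjusted p in limma = 0.0231). This call was lost without the GM-BMDC array numbered 1 or either M-BMM array (up to 0.149), without both GM-CSF arrays numbered 1 (0.0879) and with the Y-linked covariate (0.102). Sdha, the flavoprotein that oxidises succinate, averaged 9.81 ± 0.07 for GM-BMDC, 10.03 ± 0.02 for GM-BMM and 10.09 ± 0.06 for M-BMM (SD, n = 2), and its difference between GM-BMDC and M-BMM of -0.28 ± 0.11 did not pass in limma (adjusted p = 0.141). Sdhd, the partner anchor of Sdhc, averaged 9.44 ± 0.22 for GM-BMDC, 9.53 ± 0.03 for GM-BMM and 9.41 ± 0.03 for M-BMM (SD, n = 2), and its interval for GM-BMDC minus M-BMM was -0.28 to 0.34. The iron-sulfur subunit and 1 of the membrane anchors were thus lower in GM-BMDC, and the partner anchor did not pass the test.

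In complex III, the cytochrome bc1 complex, the called genes were all small supernumerary subunits, and they went in both directions. Against M-BMM, 1 of the 8 members was higher and 2 were lower in GM-BMDC (median 0.15), and against GM-BMM 1 was higher. Between GM-BMM and M-BMM 0 passed in limma, with 1 lower at an unadjusted p under 0.05. Uqcrh, the hinge protein between cytochrome c1 and cytochrome c, read 10.33 and 10.35 in the GM-BMDC arrays, 9.82 and 9.66 in the GM-BMM arrays and 9.97 and 9.84 in the M-BMM arrays. The GM-BMDC arrays lay above all others. Uqcrh was higher in GM-BMDC than in GM-BMM by 1.51-fold (log2 difference 0.60 ± 0.12, adjusted p = 0.0185) in limma and than in M-BMM by 1.35-fold (log2 difference 0.43 ± 0.12, adjusted p = 0.0452). The second call was lost in each of the 6 fits that left out 1 array (adjusted p in limma up to 0.214) and when arrays were centred on their medians. The first was lost without either GM-BMDC array or the GM-BMM array numbered 2 (up to 0.0927).

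Uqcr11, a small membrane subunit, read 8.0 and 8.37 in the GM-BMDC arrays, 8.31 and 8.68 in the GM-BMM arrays and 9.09 and 9.06 in the M-BMM arrays. Both M-BMM arrays lay above the 4 GM-CSF arrays, which overlapped each other. It was 1.85-fold lower in GM-BMDC than in M-BMM (log2 difference -0.89 ± 0.17, adjusted p in limma = 0.0115). Its second probe set gave a smaller difference, -0.37. Uqcrq, a small subunit near cytochrome b, read 8.43 and 8.49 in the GM-BMDC arrays, 8.77 and 8.86 in the GM-BMM arrays and 8.91 and 8.85 in the M-BMM arrays, and it was 1.34-fold lower in GM-BMDC than in M-BMM (-0.42 ± 0.11, adjusted p in limma = 0.0370). The Uqcr11 call was lost without the GM-BMDC array numbered 1 or either M-BMM array (up to 0.0975), and that of Uqcrq without either GM-BMDC or either M-BMM array (up to 0.190). Of the catalytic and core parts that were measured, none was called: Uqcrfs1, the Rieske iron-sulfur protein, differed by 0.19 between GM-BMDC and M-BMM (95% interval -0.07 to 0.45), and the core proteins Uqcrc1 and Uqcrc2 by 0.20 and 0.18. Uqcrb and Uqcr10 differed by -0.18 and 0.13.

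Complex IV, the cytochrome c oxidase, held the member with the largest difference. Against M-BMM, 1 of its 19 members was higher and 4 were lower in GM-BMDC (median -0.03). Against GM-BMM 1 was lower in GM-BMDC (median 0.09), and 1 was lower in GM-BMM than in M-BMM (median -0.09). Ndufa4, named for complex I but known as a subunit of complex IV, was the gene lower in each of these. It read 6.58 and 6.78 in the GM-BMDC arrays, 7.32 and 7.18 in the GM-BMM arrays and 8.19 and 8.0 in the M-BMM arrays. The 3 populations did not overlap, and their means were 6.68 ± 0.14 for GM-BMDC, 7.25 ± 0.10 for GM-BMM and 8.10 ± 0.14 for M-BMM (SD, n = 2).

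Ndufa4 was 2.66-fold lower in GM-BMDC than in M-BMM (log2 difference -1.41 ± 0.13, adjusted p in limma = 0.000519). It was 1.48-fold lower in GM-BMDC than in GM-BMM (-0.56 ± 0.13, 0.0358), and 1.8-fold lower in GM-BMM than in M-BMM (-0.85 ± 0.13, 0.0102). The difference between GM-BMDC and M-BMM was called in all 6 fits that left out 1 array, at -1.51 to -1.32, and it was the 1 member difference that passed limma's test for exceeding 1.5-fold (treat). Of the neighbouring steps, that between GM-BMM and M-BMM was lost without either M-BMM array (adjusted p in limma up to 0.109). That between GM-BMDC and GM-BMM was called in 1 of the 6 fits, the one without the GM-BMDC array numbered 2 (up to 0.174 in the others), and was lost without both GM-CSF arrays numbered 1 (0.250).

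**Figure D3:**
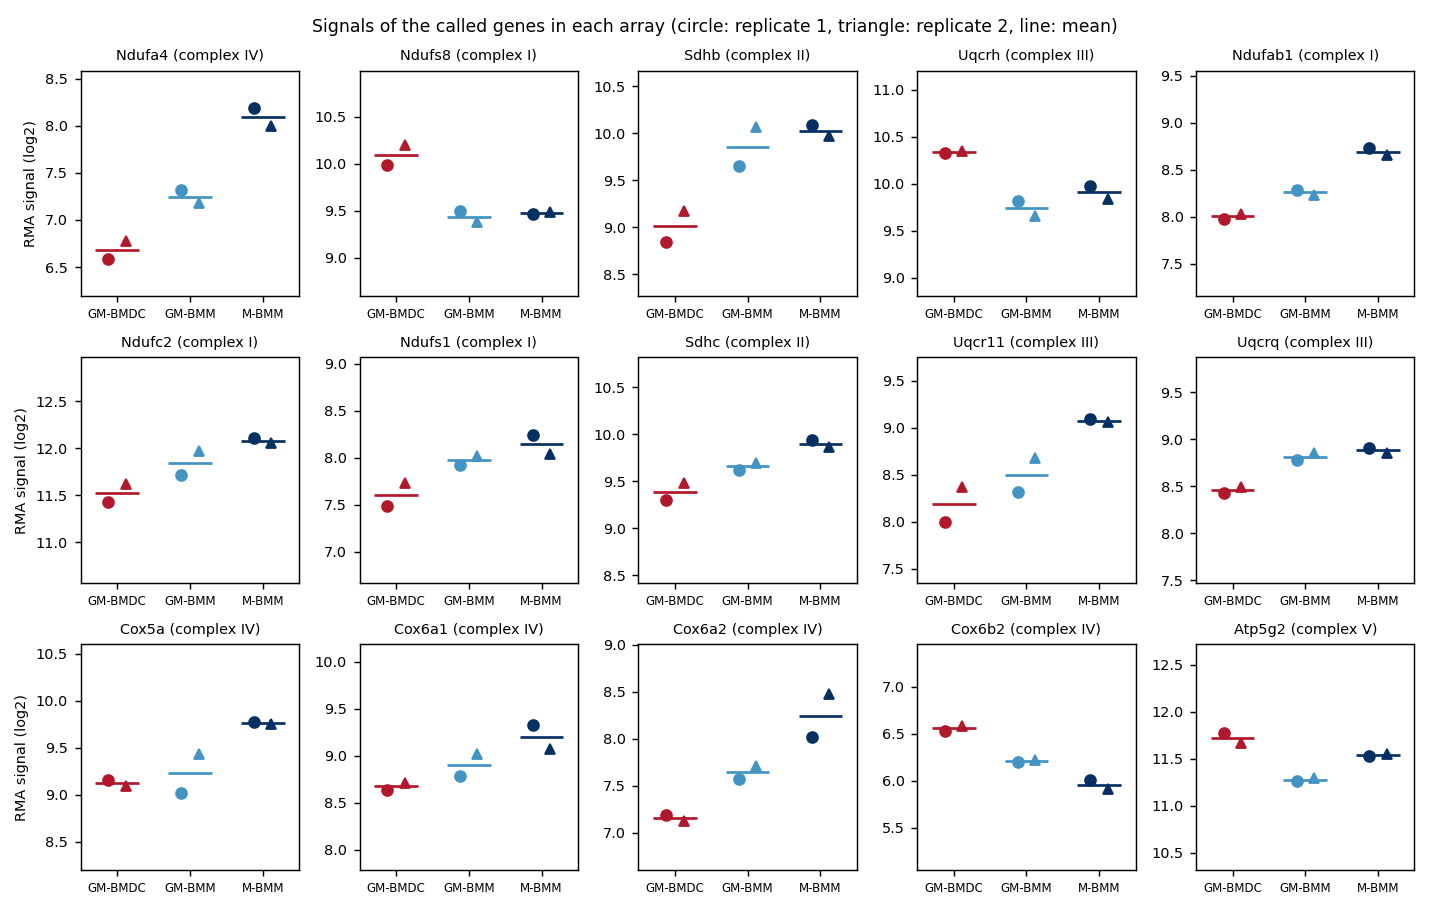
Signal (log2, vertical axis, each panel spanning a range of the same size) of the 15 called genes in each array of the 3 populations (horizontal axis), with circles for replicate 1, triangles for replicate 2 and lines for the mean. GM-BMDC is lowest for Ndufa4, Sdhb and Cox6a2 and highest for Ndufs8, Uqcrh, Cox6b2 and Atp5g2.

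Cox5a and Cox6a1 were the other common subunits called. Cox5a, a matrix-side subunit, read 9.15 and 9.09 in the GM-BMDC arrays, 9.03 and 9.43 in the GM-BMM arrays and 9.78 and 9.76 in the M-BMM arrays, and the GM-BMDC arrays lay inside the range of GM-BMM. It was 1.56-fold lower in GM-BMDC than in M-BMM (log2 difference -0.64 ± 0.15, adjusted p in limma = 0.0257). Cox6a1, the broadly expressed form of subunit 6A, read 8.64 and 8.71 in the GM-BMDC arrays, 8.78 and 9.02 in the GM-BMM arrays and 9.33 and 9.07 in the M-BMM arrays and was 1.44-fold lower (-0.53 ± 0.14, 0.0400). Both calls were lost without either GM-BMDC or either M-BMM array (adjusted p in limma up to 0.152 for Cox5a and 0.239 for Cox6a1) and with the Y-linked covariate (0.108 and 0.161). The remaining common subunits differed between GM-BMDC and M-BMM by -0.27 (Cox4i1) to 0.21 (Cox7b), with Cox6c at -0.05 and Cox8a at 0.13.

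Several subunits of complex IV have a second form made in other tissues, and in the pair of subunit 6A both forms were lower in GM-BMDC than in M-BMM. Cox6a2, the form typical of heart and skeletal muscle, read 7.19 and 7.13 in the GM-BMDC arrays, 7.57 and 7.71 in the GM-BMM arrays and 8.01 and 8.48 in the M-BMM arrays. The populations did not overlap, and all arrays lay above the median gene. Cox6a2 was 2.13-fold lower in GM-BMDC than in M-BMM (log2 difference -1.09 ± 0.16, adjusted p in limma = 0.00416), in all 6 fits without 1 array (-1.32 to -0.86). The intermediate steps were -0.49 (adjusted p in limma 0.123) and -0.60 (0.0844). The muscle genes Myh6, Myh7, Ckm and Actn2 averaged 5.91 to 6.00 for GM-BMDC, 5.88 to 5.90 for GM-BMM and 5.86 to 5.90 for M-BMM, with 0 of 4 called in limma and 0 below an unadjusted p of 0.05. They did not follow Cox6a2.

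For subunit 6B, Cox6b2 was called between GM-BMDC and M-BMM and Cox6b1 was not. Cox6b2, known from testis, read 6.53 and 6.59 in the GM-BMDC arrays, 6.20 and 6.22 in the GM-BMM arrays and 6.00 and 5.91 in the M-BMM arrays, a rank order opposite to that of Cox6a2, and was higher in GM-BMDC than in M-BMM by 1.52-fold (log2 difference 0.60 ± 0.11, adjusted p = 0.00879) in limma. That call was lost without either M-BMM array (up to 0.0741). The common form Cox6b1 averaged 10.84 ± 0.06 for GM-BMDC, 10.50 ± 0.02 for GM-BMM and 10.81 ± 0.02 for M-BMM (SD, n = 2), with a 95% interval of -0.22 to 0.28 for GM-BMDC minus M-BMM. For subunit 4, Cox4i1 differed by -0.27 and Cox4i2, a form linked to low oxygen, by -0.03. For subunit 7A, Cox7a2 differed by -0.20, Cox7a1, the muscle form, by -0.30, and Cox7a2l, which joins complexes III and IV into supercomplexes, by 0.02. Cox7b and Cox7b2 differed by 0.21 and 0.00, and Cox8a, Cox8b and Cox8c by 0.13, 0.19 and 0.11. Ndufa4l2, a paralogue of Ndufa4 induced by low oxygen, averaged 5.65 ± 0.05 for GM-BMDC, 5.55 ± 0.42 for GM-BMM and 5.76 ± 0.15 for M-BMM (SD, n = 2) and differed by -0.12 (95% interval -0.57 to 0.34). Outside subunits 6A, 6B and Ndufa4, no form in these pairs was called in limma between GM-BMDC and M-BMM. Whether forms of a pair differ from each other in their response was not tested.

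**Figure D4:**
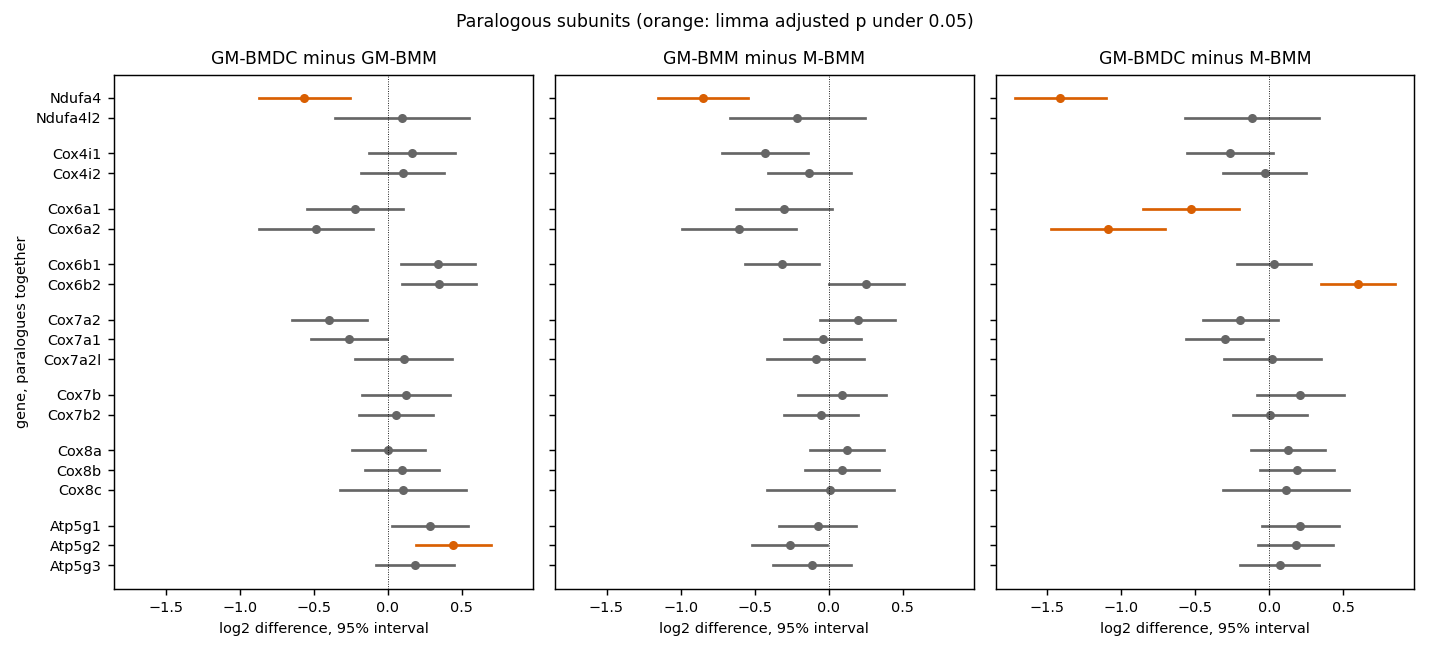
Difference of population means (log2, horizontal axis, the same range in each panel) with its 95% interval from limma for subunits that have paralogues, grouped by family (vertical axis), in the 3 comparisons. Orange marks an adjusted p under 0.05. Between GM-BMDC and M-BMM, Ndufa4, Cox6a1 and Cox6a2 lie below 0 and Cox6b2 above it, while the intervals of most other forms cross 0.

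Complex V, the ATP synthase, was the complex with no called member between GM-BMDC and M-BMM, where its 17 members ran from -0.38 (Atp5mpl) to 0.23 (Atp5d) with a median of 0.07. In limma 0 were higher and 2 lower there at an unadjusted p under 0.05. Between GM-BMM and M-BMM 0 were called either, with 0 higher and 3 lower unadjusted and a median of -0.07. Between GM-BMDC and GM-BMM, 1 was called higher and 12 of the 17 lay above 0 (median 0.06), with 3 higher and 0 lower unadjusted. The 5 subunits of F1, the head where ATP is made with its central stalk, differed by -0.09 to 0.23 between GM-BMDC and M-BMM. Atp5b, the catalytic beta subunit, averaged 12.39 ± 0.03 for GM-BMDC, 12.43 ± 0.09 for GM-BMM and 12.28 ± 0.01 for M-BMM (SD, n = 2), with a 95% interval of -0.15 to 0.36, and Atp5d averaged 12.72 ± 0.01 for GM-BMDC, 12.55 ± 0.04 for GM-BMM and 12.48 ± 0.01 for M-BMM. The 4 subunits of the peripheral stalk, which holds the head still, ran from -0.34 (Atp5o) to 0.19 (Atp5j), and the 5 small membrane subunits from -0.38 to 0.09.

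The 1 call in complex V was in the c ring, the rotor that protons turn. It is encoded by 3 genes whose mature proteins are alike. Atp5g2 read 11.78 and 11.67 in the GM-BMDC arrays, 11.26 and 11.30 in the GM-BMM arrays and 11.53 and 11.55 in the M-BMM arrays, highest in GM-BMDC, lowest in GM-BMM and without overlap. It was higher in GM-BMDC than in GM-BMM by 1.36-fold (log2 difference 0.44 ± 0.11, adjusted p = 0.0428) in limma, and its 3 probe sets each gave 0.44. The call was lost in each of the 6 fits without 1 array (adjusted p in limma up to 0.185). Atp5g1 and Atp5g3 differed by 0.28 (adjusted p in limma 0.174) and 0.18 (0.417) in that comparison. All 3 were above 0 there and against M-BMM, and below 0 between GM-BMM and M-BMM.

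The populations followed the order GM-BMDC below GM-BMM below M-BMM in their means for 31 of 89 members, and the reverse order for 13, beside 4223 and 4005 of all 19938 genes. In complex I, 16 of 41 members had the first order and 3 the reverse. In complex II 3 of 4 had it and 0 the reverse. In complex III the counts were 3 and 3 of 8, in complex IV 5 and 5 of 19, and in complex V 4 and 2 of 17. Many of these steps were smaller than the spread between arrays: the median standard error of a difference was 0.12 for the members.

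Where a gene had several probe sets, they were compared. Of the members, 17 had more than 1 probe set. For GM-BMDC minus M-BMM the probe sets lay near each other for most, such as Cox6c at -0.05 and -0.05 and the 6 of Atp5l at -0.32 to -0.21. Uqcr11 (-0.89 and -0.37) showed the widest spread. Ndufc1, an accessory subunit of complex I, had opposite signs (0.07 and -0.08), both near 0. Ndufs5, an accessory subunit, also lies on a probe set shared with other genes, so its value is uncertain.

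**Figure D5:**
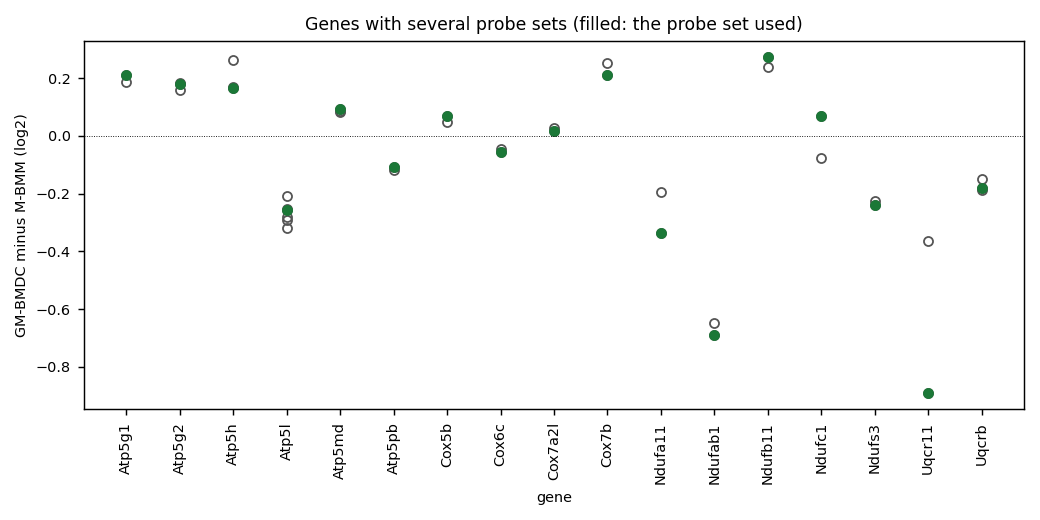
GM-BMDC minus M-BMM (log2, vertical axis) for each probe set of the 17 genes that have more than 1 (horizontal axis). Filled points are the probe set used, the brightest of the gene, and open points the others. The probe sets of Ndufab1 lie together at -0.69 and -0.65, and those of Uqcr11 lie apart.

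Other genes of mitochondrial respiration were read from 10 lists, none holding a member. Of 35 factors that assemble the complexes, 1 was higher and 4 were lower in GM-BMDC than in M-BMM (median -0.16). Sdhaf1, which helps insert the iron-sulfur clusters of Sdhb, read 8.50 and 8.06 in the GM-BMDC arrays, 7.45 and 7.36 in the GM-BMM arrays and 7.24 and 7.22 in the M-BMM arrays. It was higher in GM-BMDC than in M-BMM by 2.07-fold (log2 difference 1.05 ± 0.16, adjusted p = 0.00394) and than in GM-BMM by 1.83-fold (log2 difference 0.87 ± 0.16, adjusted p = 0.0136) in limma, the opposite direction to Sdhb. Uqcc2 and Uqcc1, which act together in making cytochrome b of complex III, were lower in GM-BMDC than in M-BMM by 1.93-fold (adjusted p in limma 0.00137) and 1.77-fold (0.00413), and Uqcc2 was lower in GM-BMM than in M-BMM by 1.66-fold (0.00954). Nubpl, which delivers iron-sulfur clusters to complex I, was lower in GM-BMDC than in both (-0.63 and -0.70), and Tmem70, needed for ATP synthase, was higher than in GM-BMM (0.60).

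Cytochrome c and coenzyme Q carry electrons between the complexes. Of 14 genes of cytochrome c and coenzyme Q synthesis, 0 were higher and 5 lower in GM-BMDC than in M-BMM. That is 35.7% beside 16.7% of all genes, with a median of -0.38, the lowest of the 10 lists. Against GM-BMM, 0 were higher and 2, Coq8a and Coq2, were lower in GM-BMDC. In GM-BMM, 1, Coq8a, was lower than in M-BMM. Coq8a, an atypical kinase of coenzyme Q synthesis, read 7.19 and 7.14 in the GM-BMDC arrays, 7.56 and 7.82 in the GM-BMM arrays and 8.52 and 8.47 in the M-BMM arrays, in the same order as Ndufa4 and without overlap. It was 2.51-fold lower in GM-BMDC than in M-BMM (log2 difference -1.33 ± 0.12, adjusted p in limma = 0.000539). Coq2, which joins the side chain to the ring, was 1.87-fold lower (0.00156) and Cycs, somatic cytochrome c, 1.66-fold lower (0.0217). Coq8b and Pdss2 were the others.

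Few regulators of mitochondrial biogenesis passed the test. Of 19 regulators of biogenesis, 1, the coactivator gene Ppargc1b, was higher in GM-BMDC than in M-BMM by 1.63-fold (log2 difference 0.70 ± 0.11, adjusted p = 0.00555) in limma and higher in GM-BMM than in M-BMM by 1.41-fold (0.0469). Polg, the mitochondrial DNA polymerase, was lower in GM-BMDC than in GM-BMM by 1.4-fold (0.0478). Nrf1, Gabpa, Tfam and Esrra differed by -0.11, -0.10, 0.00 and -0.25 between GM-BMDC and M-BMM. The 2 measured subunit genes of mitochondrial DNA, ND3 of complex I and COX2 of complex IV, differed by 0.30 and 0.09, with 0 called in limma and 0 below an unadjusted p of 0.05 in that comparison. Between GM-BMDC and GM-BMM they differed by 0.45 and 0.21, and ND3 was at an unadjusted p of 0.0314 there (adjusted p in limma 0.162).

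Around the chain, 3 of 17 genes of the citric acid cycle were lower in GM-BMDC than in M-BMM: Suclg2 (-0.79), Idh2 (-0.64) and Dld (-0.53). Suclg2 was also lower in GM-BMDC than in GM-BMM (-0.62). Of 18 genes of fatty acid oxidation 1 was lower in GM-BMDC than in M-BMM, Eci1 (-0.49), and against GM-BMM 1 was higher, Etfb (0.78). Of 12 genes of uncoupling and defence against reactive oxygen, Gpx1, a glutathione peroxidase, was higher in GM-BMDC than in M-BMM by 2.35-fold (0.000698 in limma). Gpx1 was also higher in GM-BMM than in M-BMM by 1.93-fold (0.00509 in limma). Between GM-BMDC and GM-BMM it differed by 0.28 and was not called (adjusted p in limma 0.226). Sod2, the mitochondrial superoxide dismutase, was lower in GM-BMDC than in M-BMM by 2.92-fold (0.000365) and than in GM-BMM by 4.3-fold (0.000185). Nnt, a transhydrogenase whose gene carries an internal deletion in C57BL/6J mice, was lower in GM-BMDC than in M-BMM by 1.9-fold and than in GM-BMM by 1.43-fold. Of 9 carriers of adenine nucleotides and phosphate 0 were called in limma in any comparison, with 1 lower at an unadjusted p under 0.05 between GM-BMDC and M-BMM.

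Among 26 genes of import and cristae, 4 were lower in GM-BMDC than in M-BMM: Hspa9 (-1.10), which pulls proteins into the matrix, Timm17a (-0.66), Opa1 (-0.63) and Hspd1 (-0.51). Hspa9 read 9.33 and 9.47 in the GM-BMDC arrays, 9.89 and 10.01 in the GM-BMM arrays and 10.49 and 10.52 in the M-BMM arrays and was called in all 3 comparisons. Of 77 genes of the mitochondrial ribosome, which translates the subunits encoded by mitochondrial DNA, 1 was higher and 6 were lower in GM-BMDC than in M-BMM (median -0.13, 54 below 0). Mrpl3 was 2.11-fold lower (0.00244 in limma) and Mrps6 2.19-fold higher (0.0106). Mrpl16 followed at -0.66. Mrpl3 was also lower in GM-BMM than in M-BMM by 1.86-fold (0.0123 in limma). Against GM-BMM, Mrps6 was higher in GM-BMDC (0.95), and Mrpl27 (-0.68) and Mrps18c (-0.53) were lower. Over the 229 genes of the 10 lists, 29 were called between GM-BMDC and M-BMM, 14 between GM-BMDC and GM-BMM and 6 between GM-BMM and M-BMM. These are 12.7%, 6.11% and 2.62% of the listed genes, each under the share of all genes called in that comparison (16.7%, 10.4% and 6.19%). Between GM-BMDC and M-BMM, the lists above that share were cytochrome c and coenzyme Q (35.7%), uncoupling and reactive oxygen defence (25%) and the citric acid cycle (17.6%). The other lists lay under it. With the Y-linked covariate 15 listed genes were called between GM-BMDC and M-BMM, while all genes called there fell from 3323 to 2114. Leaving out 1 array at a time kept 10 of the 29 calls in all 6 fits, those of Coq2, Coq8a, Gpx1, Hspa9, Mrpl3, Nnt, Sdhaf1, Sod2, Suclg2 and Uqcc2. Of the 14 between GM-BMDC and GM-BMM it kept 1, that of Sod2, and of the 6 between GM-BMM and M-BMM 0, so that each other call named from the lists was lost without at least 1 array. Between GM-BMDC and M-BMM, all 19 lost calls were lost without an M-BMM array, and 16 of them also without a GM-BMDC array and 3 also without a GM-BMM array. The calls of Mrps6, Ppargc1b and Uqcc1 were lost without M-BMM arrays alone.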

How the data were processed

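Each of 6 samples was measured on its own Affymetrix array. The deposited values are log2 signals, which the authors made with Affymetrix Expression Console 1.1 and RMA, per the submitters' processing notes. Of 35556 probe sets, 21789 were annotated to 1 gene, 1621 to several and 12146 to none. The brightest probe set, by its mean over arrays, stood for each of 19938 genes. Array medians lay between 6.18 and 6.28, and the number of arrays limits the precision (median standard error 0.132). The genome build behind the array annotation is not given in the sources used here.

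All 6 arrays were fitted with limma 3.58.1 in R 4.3.3 (population means, 3 residual and 4.34 prior degrees of freedom, two-sided, Benjamini-Hochberg over all genes at 0.05). Simulated data had 200 of 19938 genes changed. Of those changed 2-fold, the fit found 68.5% (GM-BMDC against GM-BMM), 71% (GM-BMM against M-BMM) and 74% (GM-BMDC against M-BMM). Of those changed 1.5-fold it found 0%. In the data 1235 to 3323 genes were called, so the simulated threshold was stricter and these shares do not carry over. Some calls in the data were under 1.5-fold, such as Uqcrq at 1.34-fold. The members, lists, tests and alternatives were chosen with earlier results of these data known. Named members are up to 3 called genes per complex and comparison with the largest difference, all of complex II, paralogues and the brightest and dimmest of each complex; from each list, up to 3 called genes per comparison are named. Others were named after their values were seen. Alternatives left out arrays or changed covariates, variance model, filter, normalization, probe set and threshold. Where a fit left 1 array in a population, that array is assumed to vary like the others. Promoter windows are from RefSeq (GRCm38.p6).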

Additional observations from a re-analysis of the deposited data

How the results depend on the processing

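With 2 arrays per population, most counts of called members moved with single arrays and with the variance model. Those of all genes moved as well, and the cause was not tested. Leaving out 1 array at a time gave 0 to 2 members higher and 0 to 2 lower between GM-BMDC and GM-BMM (3 and 2 with all arrays), 0 to 2 higher and 2 to 11 lower between GM-BMDC and M-BMM (3 and 11), 0 to 2 lower between GM-BMM and M-BMM (1), 2 to 10 by the F test (10), and 2 to 9, 10 to 28 and 0 to 5 genes of the related lists (14, 29 and 6, in the order GM-BMDC minus GM-BMM, GM-BMDC minus M-BMM, GM-BMM minus M-BMM). Without moderation, where limma has 3 degrees of freedom per gene, every one of these counts was 0. Of all genes, 0, 17 and 8 were called then, in the same order. At an unadjusted p under 0.05 there were 19, 31 and 15 members, beside 3686, 4628 and 3075 of all genes. Tested for a difference over 1.5-fold, 0, 0 and 0 members were higher and 0, 1 and 0 lower, and 1, 4 and 0 genes of the lists were called.

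Between GM-BMDC and GM-BMM, the number of members lower was 1 without both GM-CSF arrays numbered 1, 1 with the replicate block, 0 with only those arrays fitted (8 unadjusted) and 4 among genes above the median signal, and the lists had 8 with the block and 2 with only those arrays. Between GM-BMDC and M-BMM, 6 were lower without both arrays numbered 1 and 5 with the Y-linked covariate, and the lists had 15 with that covariate. Between GM-BMM and M-BMM, 2 were lower among genes above the median signal and 2 after quantile normalization, and the lists had 14, 10 after quantile normalization and 10 with trend and robust variances. The median member difference between GM-BMDC and GM-BMM (-0.02) was 0.03 after quantile normalization, 0.06 without GM-BMDC replicate 1 and 0.06 without both GM-CSF arrays numbered 1. Between GM-BMM and M-BMM it (-0.07) was -0.12 after quantile normalization and -0.04 with the Y-linked covariate.

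The labels do not say that a replicate number marks a shared animal or culture. Deviations of equally numbered arrays correlated over all genes at 0.02 (GM-BMDC and GM-BMM), 0.03 (GM-BMM and M-BMM) and -0.13 (GM-BMDC and M-BMM), and over the members at 0.20, 0.08 and -0.24, so the fit without the block was kept. Low Y-linked signals were shared by the GM-CSF arrays numbered 1. The replicate block gave 2 members higher and 1 lower between GM-BMDC and GM-BMM, 2 and 10 between GM-BMDC and M-BMM, and 0 and 1 between GM-BMM and M-BMM, and 9 by the F test. With the M-BMM numbers crossed, an alternative chosen after seeing the data, the counts were 2 and 2, 2 and 11, 0 and 1, and 9. No called difference of a member changed sign under the alternatives run.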

Other observations

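AA467197, whose synonym is Nmes1, was chosen after its values were seen. It encodes a paralogue of Ndufa4 known to take the place of the Ndufa4 protein in complex IV, and its symbol lies outside the rule for members. Its signals were 11.41 and 10.91 in the GM-BMDC arrays, 10.84 and 10.63 in the GM-BMM arrays and 6.18 and 6.38 in the M-BMM arrays. All 4 GM-CSF arrays lay far above both M-BMM arrays. In limma it was 29.5-fold higher in GM-BMDC than in M-BMM (log2 difference 4.88 ± 0.18, adjusted p = 1.56e-05) and 22.0-fold higher in GM-BMM than in M-BMM (4.46 ± 0.18, adjusted p = 4.14e-05), and both calls were made in all 6 fits without 1 array. Between GM-BMDC and GM-BMM it differed by 0.42 (adjusted p in limma = 0.223). Ndufa4 was lower where AA467197 was higher against M-BMM. Against GM-BMM, Ndufa4 was lower in GM-BMDC while AA467197 did not pass the test.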
